A study of Mus musculus with 4 samples.

Results

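The genes described here are Gdf11, Smad4 and Smad5, which encode a secreted ligand of the transforming growth factor β (TGF-β) family and a pair of the intracellular Smad proteins that carry signals from the receptors of that family to the nucleus. They were measured on microarrays in brown adipocytes that expressed NT-PGC-1α, a short splice form of the transcriptional coactivator PGC-1α, or an empty vector. The members were found as the probes that the study's list of changed genes pairs with these symbols, together with any probe whose gene identifier was the same. The list named 3 probes, 1 for each gene, and a search of the identifiers found 0 further probes, so the genes were represented by 3 of the 33012 probes on the array. The list had been drawn up from the same arrays by fold and p value. The increases of these 3 probes therefore chose them, and their values are given as a description without a test.

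GDF11 is made as a precursor from which a mature growth factor is released by proteolysis, and it signals through activin receptors that phosphorylate Smad2 and Smad3. Smad5, with Smad1 and Smad9, is phosphorylated by receptors of the bone morphogenetic protein (BMP) branch. Smad4 is the common partner that phosphorylated Smads of either branch bind before they act on target genes. Some BMP ligands are known to favor the brown adipocyte fate, and TGF-β and activin ligands are known to restrain adipocyte differentiation. Smads are controlled by phosphorylation, which arrays do not measure, and the signals given here report transcripts alone.

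Both groups were immortalized preadipocytes of brown fat from FVB mice that had been transduced with lentivirus, in 1 group coding for hemagglutinin-tagged NT-PGC-1α and in the other carrying the empty vector. All cells were treated alike, with 2 days of induction in insulin, triiodothyronine, isobutylmethylxanthine, dexamethasone and indomethacin and then 5 days in insulin and triiodothyronine. RNA was combined into 1 pool per group, from 3 RNA samples according to the methods and from 2 according to the deposited description, and 2 Mouse Genome Survey arrays from ABI, A and B, were hybridized with each pool. The empty vector pool is called the control below. The 2 arrays of a pool are technical replicates, so every fold compares 1 pool with 1 pool, its error is that between arrays, and no test across cultures was made. The sources do not say whether the transduced cells were 1 clone or a mixed population.

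The deposited signals, in arbitrary units, had array medians of 395 to 448, and they were log2 transformed and quantile normalized, which set the median of every array to 420. A fold is the ratio of the NT-PGC-1α mean to the control mean, each taken on the log2 scale, and it is followed by its range over the 4 pairings of an array from each pool. Ppargc1a, the gene from which NT-PGC-1α is made, served to check the labels. Its normalized signals were 114 and 136 for the control and 1078 and 714 for NT-PGC-1α, which makes a fold of 7.06 (5.26 to 9.46), and the part of the transcript that it targets is not known here. Of the markers of brown adipocytes fixed for this work, 4 had a named probe, Ppargc1a among them. Ebf2, a factor of the brown lineage, had control signals of 10812 and 10287. Ppara had 5616 and 5908, and Fgf21 was dimmer, with 517 and 489. Probes for Ucp1, Cidea, Adipoq and Fabp4 were not analysed here, because their symbols could not be paired with a probe.

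The signal of Gdf11 was 10.3 times as high with NT-PGC-1α as in the control, where it was low. Its probe (847722, identifier mCG18677.1) had deposited signals of 244 and 165 on control arrays A and B and of 2053 and 1880 on arrays A and B of NT-PGC-1α. After normalization these were 249 and 175 in the control against 2108 and 2201 with NT-PGC-1α. Both NT-PGC-1α arrays were thus far above both control arrays, with no overlap. Such a separation in one direction or the other was common and held for 71.7% of all probes. The probe lay below the median signal of its array in the control pool, brighter than 34.8% and 19.7% of probes on arrays A and B, and at 71.2% and 71.6% in the NT-PGC-1α pool. The fold ranged from 8.45 to 12.6 across the pairings, and most of that range came from the control arrays, which differed 1.43-fold from each other while the NT-PGC-1α arrays differed 1.04-fold. Among the folds of all probes it ranked at 35 from the top. Whether the deposited signals had been background-subtracted is not stated in the sources used here, so how much of the control signal was background is unknown. With every normalized signal under 500 raised to 500, a floor chosen after seeing the data, the fold was 4.31.

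Smad4 had a fold of 2.42. Its probe (376286, mCG19685.2) had deposited signals of 355 and 346 in the control against 838 and 767 with NT-PGC-1α. The normalized signals were 344 and 368 in the control against 835 and 885 with NT-PGC-1α, again without overlap. Its arrays were close to each other, with a difference of 1.07-fold between the control arrays and 1.06-fold between the NT-PGC-1α arrays, and the fold ranged from 2.27 to 2.57. The probe moved from below the array median in the control, at 45.3% and 47.0%, to above it with NT-PGC-1α, at 61.1% and 61.8%.

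Smad5 was 1.69-fold higher and was the only one of the 3 whose probe was above the array median in both pools. Its probe (327658, mCG120316) had deposited signals of 2116 and 2075 in the control against 3196 and 2718 with NT-PGC-1α. After normalization the values were 1802 and 2023 in the control against 3282 and 3170.0 with NT-PGC-1α. The groups did not overlap, the arrays of a pool differed 1.12-fold in the control and 1.04-fold with NT-PGC-1α, and the fold ranged from 1.57 to 1.82. The size of this increase depended on the scaling. Without normalization it was 1.41 (1.28 to 1.54), and with each array centred on its median 1.42 (1.32 to 1.53), both under 1.5-fold, although the NT-PGC-1α arrays were still above the control arrays.

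**Figure D1:**
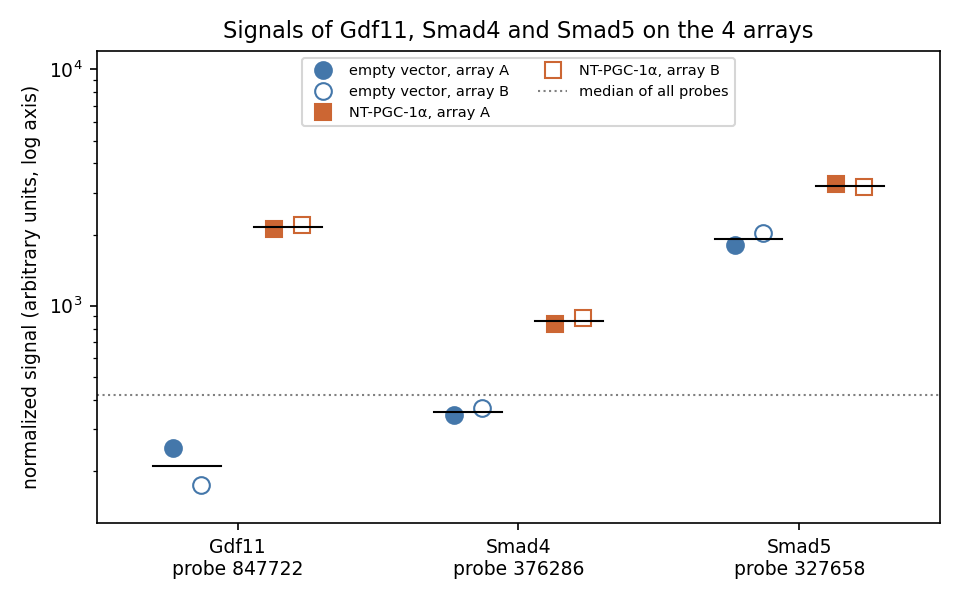
Normalized signals on a log axis for the probes of Gdf11, Smad4 and Smad5, with filled symbols for array A, open symbols for array B, circles for control (empty vector), squares for NT-PGC-1α, bars for the mean of the log2 signals and a dotted line at the median of all probes, 420. For each probe both NT-PGC-1α arrays lie above both control arrays, and the arrays of a pool lie furthest apart for Gdf11 in the control. Signals of different probes are not on a common scale of transcript abundance.

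Among the 3 genes the order of the folds was Gdf11, Smad4 and Smad5. The fold of Gdf11 was 4.27 times that of Smad4, from 3.28 to 5.55 over the extremes of the pairings, and 6.10 times that of Smad5, from 4.64 to 8.03. The fold of Smad4 was 1.43 times that of Smad5, from 1.25 to 1.64. No neighbors in this order overlapped in their ranges under quantile normalization. With the floor of 500, which raised the control signals of Gdf11 and Smad4, Gdf11 was at 2.51 times the fold of Smad4 and 2.55 times that of Smad5. Under that floor the fold of Smad4, 1.72 (1.67 to 1.77), lay within the range of Smad5, so the order of these 2 rests on signals under 500. These ranges hold the error between arrays and not that between cultures.

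At least 1.5-fold higher without overlap were 16.9% of all 33012 probes in the NT-PGC-1α pool, and 17.6% were as much lower. All 3 probes are in the first of these sets, but they were chosen for an increase on these arrays, and nothing follows from their count. Under 75th percentile centring the split over all probes was 9227 higher and 3759 lower, against 5565 and 5802, with a median log2 fold of 0.22 over all probes. Relative to that median the folds under this centring were 10.1 for Gdf11, 2.36 for Smad4 and 1.45 for Smad5.

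The precision of a fold differed with the signal. The probes were divided into 10 equal groups by their mean signal over all arrays. Gdf11 and Smad4 fell in the sixth group, where the median difference between arrays was 1.16-fold in the control and 1.22-fold with NT-PGC-1α, and where 28.9% of probes were at least 1.5-fold higher without overlap. The difference of 1.43-fold between the control arrays for Gdf11 was below the 95th percentile of that group in the control, 1.70-fold. The control mean of Gdf11, 209, was however below the signals of that group and within those of the third (186 to 227). In the third group the control arrays differed by 1.23-fold in the median and 1.89-fold at the 95th percentile. Smad5 fell in the eighth, where the arrays differed by 1.05-fold in the median in either pool and 8.03% of probes were at least 1.5-fold higher. A difference of 1.12-fold between the control arrays, as Smad5 had, was above the median of that group and below its 95th percentile of 1.16-fold.

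**Figure D2:**
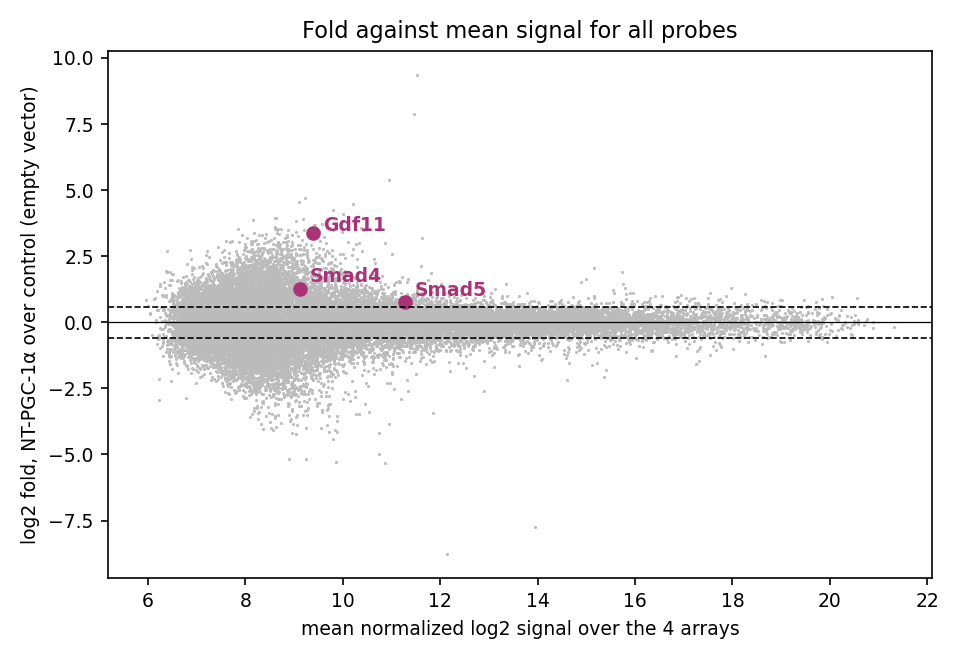
Log2 fold of NT-PGC-1α over control against the mean normalized log2 signal for all 33012 probes (grey points), with Gdf11, Smad4 and Smad5 marked and dashed lines at 1.5-fold in each direction. The points spread most in the middle of the signal range, in the sixth of the 10 groups by mean signal, where the SD of the log2 folds was 1.25 and where Gdf11 (log2 fold 3.37) and Smad4 (1.27) lie. Smad5 (0.76) lies in the eighth, where that SD was 0.57.

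**Figure D3:**
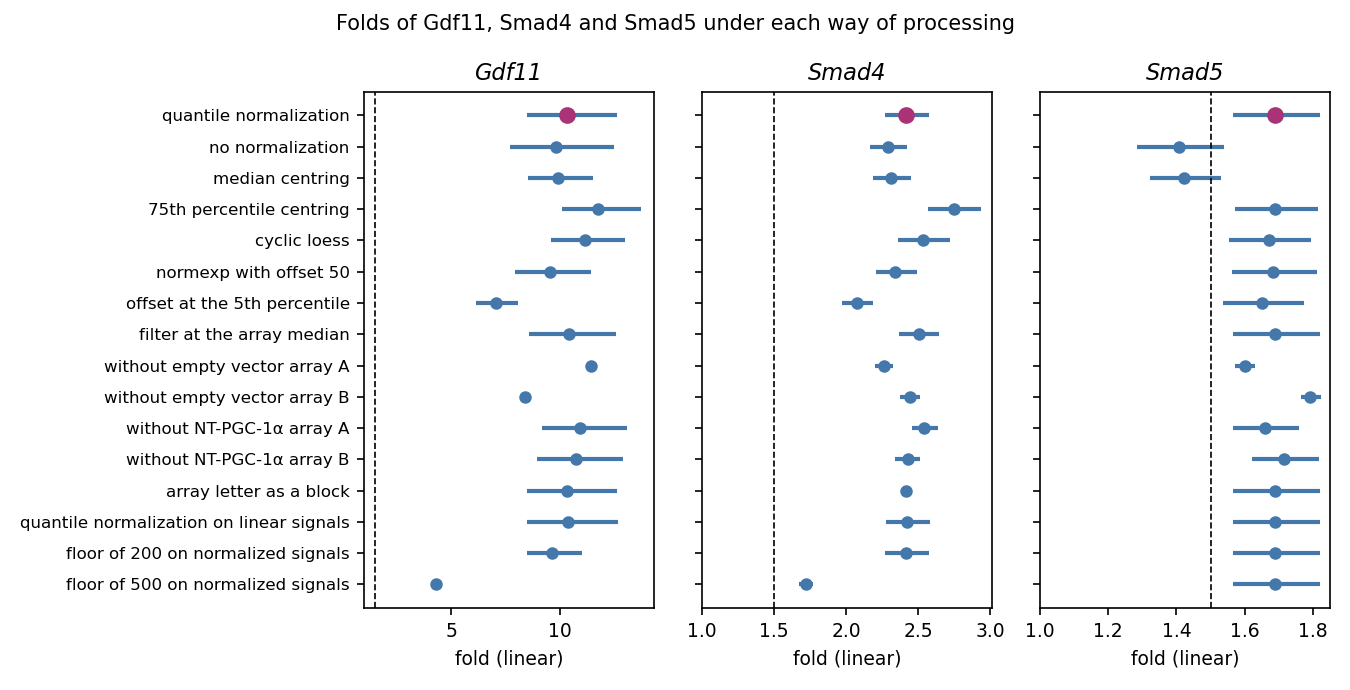
Fold of NT-PGC-1α over control on a linear scale for each gene under each way of processing, with the point at the fold, the line at its range over the pairings of arrays, and a dashed line at 1.5-fold. Smad5 lies under 1.5-fold without normalization (1.41) and with median centring (1.42), and Gdf11 falls to 4.31 with a floor of 500. The line for the array letter as a block spans the pairs of arrays with the same letter.

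The promoters of Gdf11 and Smad5 were read from RefSeq (GRCm38.p6) as a description, and shared control of these genes was not tested. The promoters are shown as the 250 bases before the outermost annotated start, 5′ to 3′ on the strand of the gene. Capitals mark the letters TATAAA and CCAAT on either strand (a match on the other strand is read as its reverse complement). The Gdf11 window is chr10:128891719-128891968 on the minus strand and the Smad5 window is chr13:56702760-56703009 on the plus strand.
Gdf11: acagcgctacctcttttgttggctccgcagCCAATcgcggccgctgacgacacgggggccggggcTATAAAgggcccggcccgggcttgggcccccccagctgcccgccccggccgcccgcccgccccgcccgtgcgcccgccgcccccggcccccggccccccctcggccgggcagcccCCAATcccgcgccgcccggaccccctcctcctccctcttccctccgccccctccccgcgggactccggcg
Smad5: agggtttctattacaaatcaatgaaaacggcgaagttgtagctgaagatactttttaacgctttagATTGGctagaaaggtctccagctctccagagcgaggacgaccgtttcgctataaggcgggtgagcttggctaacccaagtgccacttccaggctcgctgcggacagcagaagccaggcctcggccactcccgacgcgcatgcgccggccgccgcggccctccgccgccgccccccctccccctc

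The 2 windows shared few features. GC content was 81.2% in the Gdf11 window, above that of 99.1% of the 32851 promoter windows in the table, and 60.0% in the Smad5 window, above that of 72.1%, against a median of 52.4%. The Gdf11 window held TATAAA once, from base 185 to base 180 before the start, and CCAAT at 2 places, while the Smad5 window held CCAAT once, on the other strand, and no TATAAA. Of all windows, 12.4% held TATAAA and 33.8% held CCAAT, and both were chosen after the sequences had been seen. A further set of 6 motifs was searched on both strands, namely the nuclear receptor half-site AGGTCA, the ERR element TCAAGGTCA that contains it, the Smad box CAGAC, the palindromic Smad element GTCTAGAC, the cAMP response element TGACGTCA and the E-box CACGTG. None of these 6 was found in either window, against 14.0%, 0.387%, 42.2%, 0.167%, 1.55% and 6.02% of all windows in that order. The absence of these letters says nothing of the factors or of sites elsewhere, and the Smad4 promoter is not included here.

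The genes around these members in the TGF-β family were taken from a list of 139 symbols of ligands, binding proteins, receptors, Smads, Smad regulators, partner factors and target genes. Only 19 of the 139 had a probe that could be named, all of them through the study's own list of changed genes, so each had been selected for a change on these arrays, with a lower bar for increases than for decreases. Of the 19 probes, 7 were higher and 12 lower in the NT-PGC-1α pool, none with overlapping groups (against 71.7% of all probes without overlap). A difference of 1.5-fold was reached by 4 of the former and by all 12 of the latter, against 16.9% higher and 17.6% lower of all probes. By the paper, the decreases in the study's list were at least 1.5-fold, so the count of 12 was largely set by the naming. The median log2 fold over the 19 was -0.71, or -0.78 without the 3 members, against 0.01 over all probes. These counts describe a selected list and are not evidence of a direction of the pathway. The direction of each of the 19 probes was the same under every way of processing in which it was measured.

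Among the ligands, Gdf11 was the only one of the 3 with a named probe that was higher. Tgfb2, a TGF-β isoform that signals through Smad2 and Smad3, had normalized signals of 1771 and 2039 in the control against 480 and 473 with NT-PGC-1α, 3.99-fold lower (3.69 to 4.31). Gdf5, a ligand of the BMP branch known for its part in joint development, had 747 and 739 in the control against 469 and 440 with NT-PGC-1α, 1.64-fold lower. These 3 ligands thus moved apart, but each could be named only because the study had called it changed. Of all probes, 16.9% were at least 1.5-fold higher and 17.6% as much lower without overlap. Gdf5 was under 1.5-fold with the floor of 500 (1.49-fold lower) and with 75th percentile centring (1.47-fold lower). The other ligands of the list, Bmp7, Bmp8b and Mstn among them, had no named probe and were not analysed here.

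Extracellular proteins that bind or hold these ligands were represented by 6 probes. Of these, 5 were lower with NT-PGC-1α by at least 1.5-fold, against 17.6% of all probes. The study's list held decreases only at 1.5-fold or more, so this count was largely set by the naming. Chrdl2, a chordin-like BMP antagonist, was the furthest apart at 8.31-fold lower (5.94 to 11.6), from signals of 1145 and 1586 to low signals of 137 and 193. With the floor of 500 it was 2.70-fold lower. Ltbp1, which tethers latent TGF-β to the extracellular matrix, was 2.95-fold lower, from 3495 and 3553 to 1207 and 1180. Dcn, which encodes decorin, a matrix proteoglycan that binds TGF-β, was 2.73-fold lower, from 12890 and 12299 to 4326 and 4902. Chrd, a BMP antagonist with bright signals in both pools, was 1.76-fold lower. Fstl1, a secreted glycoprotein related to follistatin, was 1.89-fold lower. Dand5, an antagonist of Nodal, was the exception at 1.36-fold higher (1.32 to 1.41), from 2655 and 2548 to 3581 and 3500.

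Of the intracellular components, Smad4 and Smad5 were the only 2 of the 8 Smads with a named probe. Smurf2, a ubiquitin ligase that targets Smads and their receptors, was 1.45-fold higher (1.35 to 1.57), from 3623 and 3449 to 4897 and 5399. Tbrg3, listed for its name as a gene regulated by TGF-β, was 2.29-fold higher from low signals of 247 and 276, but 1.20-fold higher with the floor of 500. Ppm1a, a phosphatase known to act on phosphorylated Smads, was 1.69-fold lower, from 8068 and 7367 to 4374 and 4738. Fkbp1a, which binds type I receptors of the family, was 1.29-fold higher at the named probe, from 7856 and 7498 to 9469 and 10283. A second, dimmer probe with the identifier of Fkbp1a went the other way, 2.52-fold lower, from 374 and 478 to 162 and 174. Gdf11, Smad4 and Smad5 had no second probe by which their increases could be compared in this way.

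Only 3 of the 16 listed transcription factors that act with Smads, and 1 of the 16 listed target genes, had a named probe. These probes were lower with NT-PGC-1α. Each was named through the list of changed genes, so falls of this size were largely set by the naming. Of all probes, 17.6% fell by 1.5-fold or more without overlap. The other listed factors and target genes were not analysed here. Runx3, a Runt family factor, was 1.74-fold lower, the cardiac homeobox factor Nkx2-5 1.64-fold and Jun, a subunit of AP-1, 1.53-fold. Snai2, a repressor induced by TGF-β, was 1.75-fold lower, from 1341 and 1520 to 745 and 893. Jun was close to the limit of 1.5-fold, with a range of 1.47 to 1.60, and was under it with 75th percentile centring (1.46) and without NT-PGC-1α array B (1.48).

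**Figure D4:**
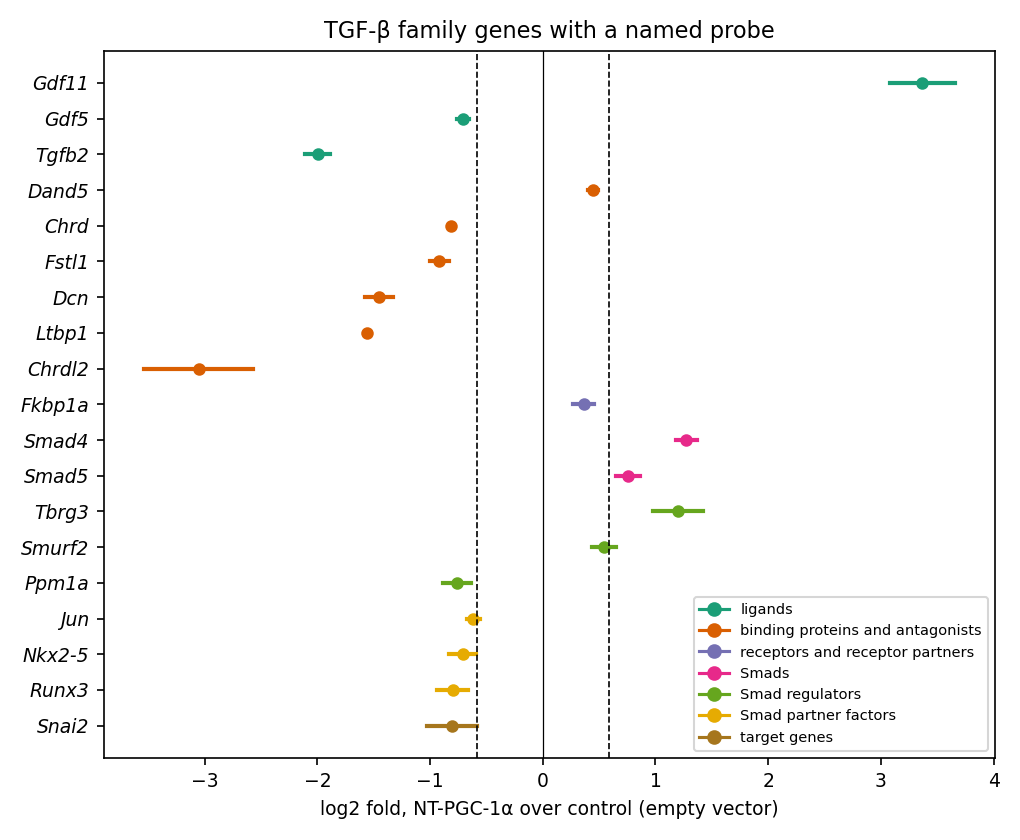
Log2 fold of NT-PGC-1α over control for the 19 TGF-β family genes with a named probe, grouped by role, with the point at the fold, the line at the range over the pairings of arrays and dashed lines at 1.5-fold in each direction. Gdf11, Smad4, Smad5 and Tbrg3 lie beyond 1.5-fold on the higher side (Tbrg3 at 1.20 with the floor of 500), and Chrdl2 and Tgfb2 lie furthest to the lower side.

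Markers of other cell types differed between the same pools. Of 13 markers of preadipocytes or fibroblasts, the 4 with a named probe, Col1a1, Col3a1, Dcn and Thy1, were all lower with NT-PGC-1α by at least 1.5-fold, Dcn by 2.73-fold and Thy1 by 8.59-fold. Their summed normalized signal was 418910 to 459991 on the control arrays and 272945 to 292115 on the NT-PGC-1α arrays. Such a sum follows its brightest probe, here Col3a1 with 73.3% to 77.3% of it. Dcn is also one of the 6 binding proteins above. Named probes of 4 of the 13 brown adipocyte markers, Ebf2, Ppara, Fgf21 and the overexpressed Ppargc1a, were at least 1.5-fold higher. Their sum went from 16819 to 17059 in the control to 31633 to 33538 with NT-PGC-1α. The remaining brown adipocyte markers had no named probe, so these do not stand for the whole list. Ucp1, which could not be named here, was by the paper not significantly raised on these arrays. The adipocyte markers Retn and Slc2a4, 2 of 15, were 1.72-fold and 1.27-fold higher, with sums of 46796 to 47050 and 58986 to 61404. For skeletal muscle, 3 of 6 markers had a named probe (Myh4, Myl2 and Myog), all at least 1.5-fold lower, with sums of 5295 to 5461 and 3299 to 3307, and for macrophages 2 of 7 (Lyzs and Cd68), both lower, with sums of 5778 to 6086 and 2742 to 3112. No marker was listed at 0, but nor was any other probe, as the lowest deposited signals of the arrays were 24.2 to 31.4. All of these markers were named through the list of changed genes, where by the paper decreases were at least 1.5-fold. The counts of markers lower by that much were thus largely set by the naming. Of all probes, 16.9% were as much higher and 17.6% as much lower without overlap. The part of the markers in the values of Gdf11, Smad4, Smad5 and the other family genes was not tested. Fewer cells of a type and less RNA per cell cannot be told apart in such pools. Whether these cultures of immortalized brown preadipocytes held any muscle cells or macrophages was not tested.

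The named probes with signals most like those of each member over the 4 arrays were found by the Euclidean distance between normalized log2 signals, among 1635 named probes. Nearest to Gdf11 was the probe of Rab27b, a small GTPase of vesicle secretion (distance 0.42, fold 9.16). It was followed by those of Klra2, a lectin-like receptor (0.61, 10.2), and Hcn2, a pacemaker cation channel (0.82, 6.68). Among those nearest to Smad4 were Tcl1b2 (0.19) and the tubulin Tube1 (0.32), with folds of 2.43 and 2.38. Those nearest to Smad5 were Gatad2b, a subunit of a chromatin remodeling complex (0.13), the cytochrome P450 Cyp4f13 (0.15) and the Myc family gene Lmyc1 (0.18), with folds of 1.84, 1.61 and 1.60. Distances rest on 4 arrays of 2 pools and on named probes alone, most of which were named because they had changed.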

How the data were processed

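The authors deposited an intensity for each probe on each array, linear and not yet normalized between arrays. Per the methods, ABI arrays were read on a chemiluminescent analyzer. The authors' later steps, quantile normalization (R 2.2.1 in the submitters' processing notes) and filters on signal to noise and flags, are not in these values. Here, log2 signals of all 33012 probes were quantile normalized in R 4.3.3 with limma 3.58.1, without offset or filter. Folds and ranges were computed in Python 3.11.15 with numpy 2.4.6 and pandas 2.3.3. The number of arrays limits the precision.

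No test was made, because the 2 arrays of a group carry RNA of 1 pool and the members were selected on these arrays. The t test of the methods was not run for the same reason. The members and lists were chosen with earlier results of these data known. Probe symbols came from the study's list of changed genes (1342 probes), whose folds and p values were not used, and from RefSeq accessions (293 probes), and 31377 probes stayed unnamed. Named in the text are the members, every listed family gene with a named probe, and the 3 named probes nearest to each member, and a few genes covered by these choices are not reported here and were left out of the list counts. Alternatives were cyclic loess, centring on the median or the 75th percentile, signals left without normalization, an offset at the 5th percentile of signals (112), normexp (offset 50), a filter at the array median, each array left out and the array letter as a block. Quantiles of linear signals and floors of 200 and 500 were chosen after seeing the data. The calculation was tested on simulated data.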

Additional observations from a re-analysis of the deposited data

How the results depend on the processing

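Gdf11, Smad4 and Smad5 were higher with NT-PGC-1α under all 15 alternatives, and at least 1.5-fold higher in 15, 15 and 13 of them. The 3 probes had been chosen for an increase on these same arrays, so these counts describe the processing alone. A floor cannot reverse groups that do not overlap, and the block by array letter described below cannot change a fold. Without normalization the folds of Smad4 and Smad5 were 2.29 and 1.41, and with median centring that of Smad5 was 1.42. Smad4 was 2.75 with 75th percentile centring and 2.53 with cyclic loess. An offset at the 5th percentile gave 7.04 for Gdf11 and 2.08 for Smad4, and a floor of 500 gave 4.31 and 1.72, as adding to or raising low signals must lower a fold. The causes of the other shifts were not tested. With 1 array left out, the folds were 8.38 to 11.4 for Gdf11 (8.38 without empty vector array B), 2.26 to 2.54 for Smad4 and 1.60 to 1.79 for Smad5. In those 4 fits the family list held 4 to 5 probes at least 1.5-fold higher and 11 to 12 lower, and all probes 5751 to 6198 and 5899 to 6328. Over all probes, 75th percentile centring gave 9227 higher and 3759 lower, the filter, which leaves fewer probes, 2887 and 3054, and a floor of 500, 1778 and 1931. Under the other alternatives the list held 3 to 5 higher and 10 to 12 lower. Letters A and B pair nothing in the labels, and differences between arrays A and B correlated with r = -0.02 across probes between the pools. With the array letter as a replicate block the folds were 10.3, 2.42 and 1.69 as without it, which must be so when each pool has 1 array of each letter. In that setting 5663 and 5880 probes were higher and lower, with overlap judged only between arrays of the same letter, a looser rule. No alternative could be computed for further probes sharing an identifier with the 3 genes, as there were none. Without a measure of background, signals near the lowest cannot be called detected or not detected.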
